A study of Mus musculus with 8 samples.

Results

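Ribosome density change is the difference between what happened to a transcript's ribosome footprints and what happened to its mRNA when Lin28a was knocked down. It was computed in mouse embryonic stem cells of the line A3-1 from 4 of the 8 samples of the series, covering 7799 of the 7936 transcripts with footprint counts. A transcript entered when it had 50 or more counts in each assay, summed over the 2 conditions; the 137 transcripts left out fell short in footprints. The cells were grown with serum and LIF and received an siRNA against luciferase (siLuc, the control) or against Lin28a (siLin28a) for 48 h. No genetic change, sex or passage is named, and both groups share the line, the medium and the treatment with an siRNA. Each condition has 1 ribosome profiling library and 1 poly(A) RNA-seq library, so no difference below has a replicate check and none carries a p-value. Intervals are 95% intervals of counting error only.

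Ribosome profiling sequences the fragments of mRNA that a ribosome shields from nuclease, called footprints. A transcript's footprints relative to its mRNA give its ribosome density, a measure of how heavily it is translated. LIN28A, a mostly cytoplasmic protein of stem cells, attaches to precursors of the let-7 microRNA family and to mRNAs. Proteins that enter the secretory pathway are mostly made by ribosomes docked on the endoplasmic reticulum (ER): a signal peptide or membrane segment is recognised by the signal recognition particle while the chain is still growing. Tail-anchored proteins, whose single membrane segment lies at the C terminus, leave the ribosome before that segment can be read and are inserted afterwards. Most mitochondrial proteins are made in the cytosol and imported after synthesis, and lipid-anchored proteins gain their membrane attachment by later modification.

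The 2 siRNAs define the comparison and are shown with bases 2 to 8 of each strand, the seed if that strand is loaded as the guide, in capitals. Each strand is 19 bases long without its overhang, and the 2 strands of a duplex are exact reverse complements.
siLuc strand 1: uCGAAGUAcucagcguaag
siLuc strand 2: cUUACGCUgaguacuucga
siLin28a strand 1: aUGUUCUUcccuuuuggcc
siLin28a strand 2: gGCCAAAAgggaagaacau

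The targeted gene was lower in the library labelled siLin28a. Lin28a mRNA (mm9 chromosome 4, 133559245 to 133574731, 4 exons) stood at 354 CPM (counts scaled to an equal library total) in the poly(A) table with siLuc and 118 with siLin28a, so 33.4% was left. Its footprints went from 119 to 30.4 CPM. The density change of Lin28a itself was −0.55 (−0.88 to −0.22), but its 2 poly(A) tallies disagree by more than 2-fold, which makes that value uncertain. The paralog Lin28b stood at 51.8 CPM with siLuc and 33.9 with siLin28a and has no footprint counts here. The labelled cell type was checked against its markers in poly(A) RNA: all 8 stem cell markers were detected, with a summed level of 5170 CPM with siLuc and 6084 with siLin28a. Markers of other cells were far lower: 4 of 8 fibroblast markers summed to 35.7 and 21.6 CPM and 6 of 8 endoderm markers to 3.08 and 4.79, with Dab2 and Gata6 at 0 in siLuc. The 4 neural markers summed to 58.1 and 76.8 CPM. The part of these shifts in the results was not tested, and in bulk RNA fewer cells of a type and less RNA per cell cannot be told apart.

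Footprint libraries held 7570209 (siLuc) and 5980673 (siLin28a) counts, and the poly(A) libraries, as tallied beside them, held 7189717 and 9198613. Density change is given as a log2 difference, positive when density was higher with siLin28a, and centred so that the median transcript is at 0. Scaled by total counts instead, the median transcript lay at −0.22, with a median footprint change of −0.23 and a median mRNA change of −0.01. All changes below are therefore relative to the typical transcript, and a class near 0 was lower by about that shift on the scale of total counts. The standard deviation over transcripts was 0.60 and the quartiles were −0.41 and 0.43. The median half-width of the counting interval was 0.33, and 0.61 for transcripts with under 200 footprints. A change of 1.5-fold (0.585 on the log2 scale) is used as the size that counts as higher or lower. By it 1452 transcripts (18.6%) were higher and 1325 (17.0%) lower, and these shares are the background for every class below. Scaled by total counts, 867 were higher and 2132 lower, so the balance between the 2 directions depends on the centring.

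Density moved with where a protein is put in the cell. Classes were taken from 59 gene lists, each assigned to 1 topology from general knowledge of its proteins, which covered 2377 transcripts. The lists and their members were chosen with earlier results of these data known, so counts by class and list are descriptions and not tests. Of the 661 transcripts for membrane-spanning, GPI-anchored, secreted or lumenal proteins, 504 (76.3%) were 1.5-fold or more higher, against 18.6% of all transcripts, and 2 were lower, against 17.0%. Their median was 0.81. In 642 of the 661 the change was above 0. In 583 (88.2%) the counting interval lay wholly above 0, against 29.2% of all transcripts. Of the 1381 transcripts for soluble proteins of the cytosol, nucleus or membrane periphery, 344 (24.9%) were 1.5-fold or more lower, against 17.0%. In the other direction 78 (5.6%) were higher, against 18.6%, and the median was −0.21. The interval lay wholly below 0 in 626 of them (45.3%), against 28.9% of all transcripts. It lay wholly above 0 in 246 (17.8%), against 29.2%.

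**Figure D1:**
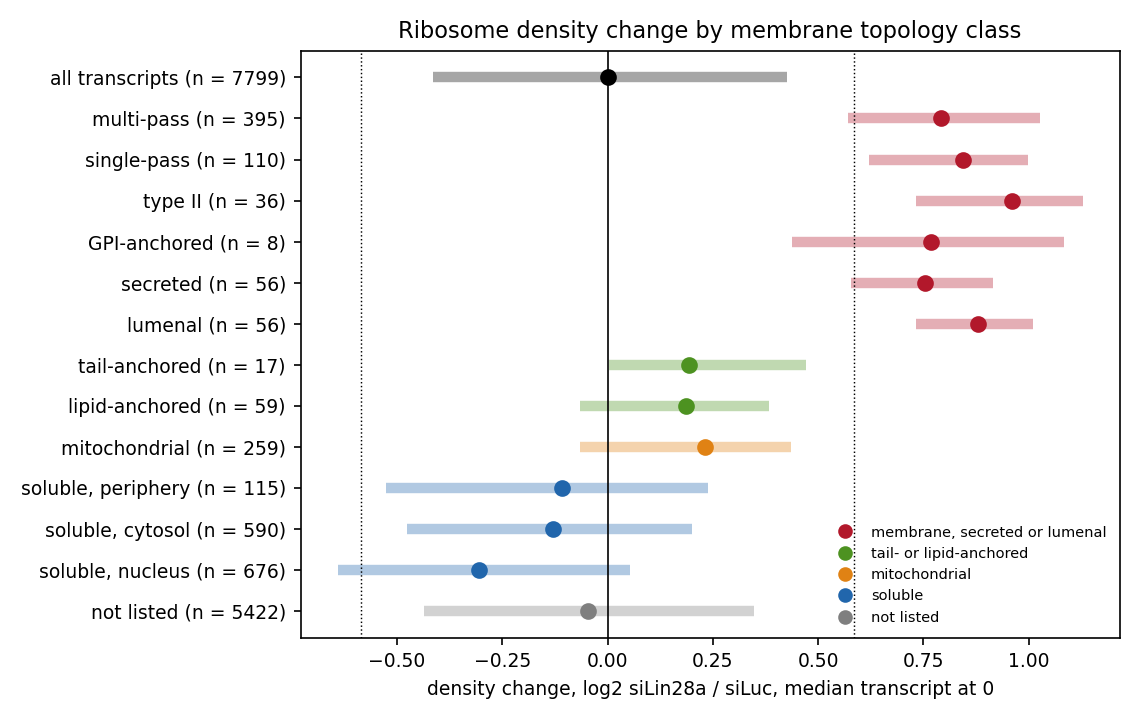
Density change (x axis, log2 siLin28a over siLuc, median transcript at 0) for all transcripts and each topology class (y axis, with the number of transcripts); points are medians, thick bars span the quartiles, and dotted lines mark 1.5-fold. The 6 membrane, secreted and lumenal classes have medians from 0.75 to 0.96. Tail-anchored SNAREs, lipid-anchored and mitochondrial proteins lie near 0.2, and soluble classes lie below 0.

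The 6 membrane, secreted and lumenal classes had similar medians, with or without a membrane segment. The multi-pass class, mostly proteins that cross the bilayer several times, had a median of 0.79, with 291 of 395 higher and 2 lower. It takes in whole lists, so it also holds tail-anchored proteins such as Emd, Fis1 and Sec61b and cytosolic ones such as Slc9a3r1. Some peroxisomal and mitochondrial membrane proteins are counted in it too. Single-pass proteins stood at 0.84, with 87 of 110 higher and 0 lower. Type II proteins, here the glycosyltransferases and sulfotransferases of the Golgi, stood at 0.96 (28 of 36 higher), and GPI-anchored proteins at 0.77 (5 of 8 higher). Secreted proteins stood at 0.75 (41 of 56 higher) and lumenal proteins, which stay inside the ER or lysosome without crossing the membrane, at 0.88 (52 of 56 higher). None of the single-pass, type II, GPI-anchored, secreted or lumenal transcripts was 1.5-fold lower. The classes overlap widely: the quartiles of multi-pass proteins, 0.57 and 1.03, span the medians of the other 5.

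SNAREs with a C-terminal anchor, lipid-anchored proteins and the mitochondrial lists stood apart from these. The mitochondrial lists also hold matrix enzymes and ribosomal proteins, so they are not a set of membrane proteins. A further 10 mitochondrial membrane proteins, picked after their values were seen, are counted as multi-pass. Their median was 0.73, with 7 higher and 0 lower. The 17 SNAREs with a C-terminal anchor, the proteins that pull vesicle and target membranes together, had a median of 0.19, or −0.022 when scaled by total counts, and 4 of 17 were higher. Small GTPases and G protein subunits, most of them held on membranes by lipids, also had a median of 0.19 (−0.029 by total counts), with 8 of 59 higher and 2 lower. That class holds 9 members taken up by a name pattern, mostly regulators and effectors of GTPases, among them both lower members, Rab3gap2 at −0.75 and Rab11fip1 at −0.64. Without the 9 its median was 0.22, with 8 of 50 higher and 0 lower. Proteins of mitochondria had a median of 0.23 (0.015 by total counts), with 34 of 259 higher and 3 lower. These 3 shares of higher transcripts, 23.5%, 13.6% and 13.1%, are near or below the 18.6% of all transcripts. Soluble proteins at the membrane periphery, such as coats and adaptors, had a median of −0.11, those of the cytosol −0.13 and those of the nucleus −0.30. In the nuclear class 202 of 676 were lower and 33 higher. The 5422 transcripts in no list had a median of −0.05, with 824 higher and 974 lower, so 56.7% of all higher transcripts lie outside the lists.

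The difference lay in the footprints rather than in the mRNA. In the membrane and lumenal classes together the median footprint change was 0.93 and the median mRNA change 0.12, both relative to the median transcript. In the soluble classes the medians were −0.24 for footprints and −0.06 for mRNA. Of the 661 membrane and lumenal transcripts, 418 were above the median transcript in both footprints and mRNA, 227 in footprints only, and 2 in mRNA only. Secreted and single-pass proteins also had more mRNA, with medians of 0.32 and 0.24. Across the 7799 transcripts density change had a rank correlation of 0.80 with the footprint change and −0.23 with the mRNA change, which are its own 2 terms.

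The shift was visible in the share of each library that these transcripts took up. Membrane and lumenal transcripts held 13.91% of footprints with siLuc (95% exact binomial interval 13.89 to 13.94) and 24.3% with siLin28a (24.27 to 24.34). Their share of poly(A) counts was 5.38% and 6.03%. Soluble classes held 39.97% of footprints with siLuc and 31.3% with siLin28a, against 42.7% and 42.0% of poly(A) counts. The list of glycolytic enzymes, which also holds pentose phosphate enzymes, went from 1.41% to 0.93% of footprints. Its share of poly(A) counts went from 1.64% to 1.96%. Lysosomal hydrolases went from 0.708% to 1.24% of footprints with a poly(A) share of 0.247% and 0.255%. These sums are dominated by abundant transcripts.

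The transcript of each class with most footprints shows the values behind the medians. Slc2a3 (mm9 chromosome 6, 122677827 to 122692763, 10 exons), a multi-pass glucose transporter, had 2394 footprint CPM with siLuc and 6174 with siLin28a, and 817 and 1148 poly(A) CPM. Its density change was 1.09 (1.04 to 1.15). Footprints of the single-pass glycoprotein gene Bsg, a chaperone of lactate transporters, were at 1074 and 1824 CPM with mRNA at 299 and 297.5, a density change of 0.98 (0.89 to 1.08). Both genes had more footprints with siLin28a, and Bsg had them at nearly the same mRNA level.

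Footprints of Tdgf1, the GPI-anchored Nodal co-receptor of pluripotent cells, were at 1190 CPM with siLuc and 2850 with siLin28a, with mRNA at 402 and 516 CPM and a density change of 1.11 (1.04 to 1.19). Lamc1 (mm9 chromosome 1, 155066052 to 155179916), the laminin gamma chain of basement membranes, had 5757 and 11678 footprint CPM, 834 and 1045 poly(A) CPM and a density change of 0.91 (0.86 to 0.96). In both genes footprints changed more than mRNA. Hsp90b1, the HSP90 of the ER lumen, had 5398 and 8102 footprint CPM with mRNA at 1212 and 965, a change of 1.13 (1.08 to 1.18). B3gnt7, a type II glycosyltransferase of the Golgi, had 174 and 257 footprint CPM and 56.2 and 36.6 poly(A) CPM, a change of 1.395 (1.16 to 1.63). In Hsp90b1 and B3gnt7 footprints were higher with siLin28a while mRNA was lower.

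In the soluble classes the direction was the opposite. Hsp90ab1 (mm9 chromosome 17, 45704727 to 45710210), the cytosolic counterpart of Hsp90b1, had 6996 footprint CPM with siLuc and 3494 with siLin28a at a poly(A) level of 7329 and 7696, a density change of −0.86 (−0.88 to −0.83). Trim28, a nuclear co-repressor of zinc finger proteins, had 2719 and 1429 footprint CPM with mRNA at 2735 and 3130, a change of −0.91 (−0.95 to −0.86). Cltc, the clathrin heavy chain that coats vesicles from the cytosolic side, had 1489 and 727 footprint CPM with mRNA at 1549 and 1483, a change of −0.76 (−0.82 to −0.69). The 2 HSP90 genes, which encode related chaperones of different compartments, thus lie on opposite sides of the median transcript.

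Between these stood the representatives of the other classes. Atp5b, a catalytic subunit of the mitochondrial ATP synthase, had 3316 and 2809 footprint CPM and 2786 and 2912 poly(A) CPM, a density change of −0.09 (−0.13 to −0.05). Rab1, a lipid-anchored GTPase of ER to Golgi transport, stood at 0.20 (0.04 to 0.36), with footprints at 185 and 139 CPM and mRNA at 229 and 173. The tail-anchored SNARE gene Use1 stood at 0.25 (−0.02 to 0.52), with footprints at 55.1 and 49.2 CPM and mRNA at 77.6 and 67.5.

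**Figure D2:**
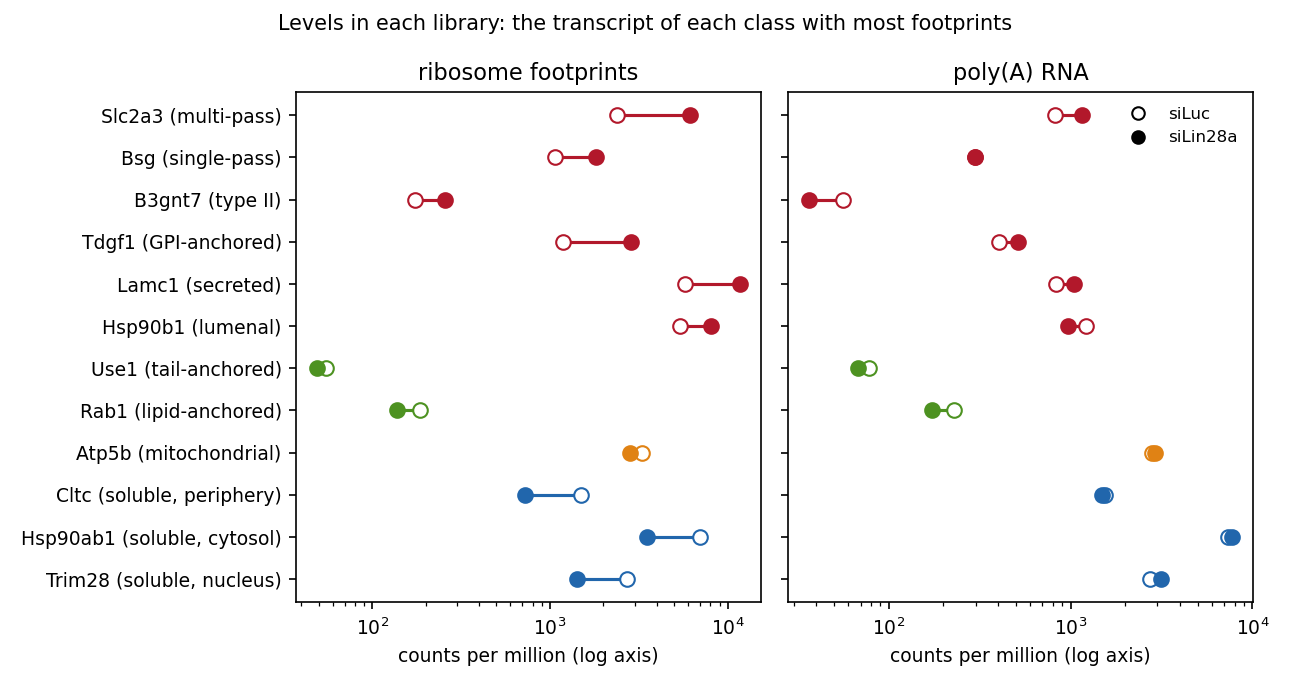
CPM (log x axes) of ribosome footprints (left) and poly(A) RNA (right) for the transcript with most footprints in each topology class (y axis); open circles are siLuc and filled circles siLin28a, 1 library each. Footprints of the 6 secretory pathway genes lie higher with siLin28a, and those of Cltc, Hsp90ab1 and Trim28 lie lower. The mRNA levels of most genes differ less, but in B3gnt7, Rab1 and Use1 mRNA differs about as much as footprints.

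By function, higher density was seen in lists of membrane proteins with unrelated jobs. These lists were chosen with earlier results known, so the tallies over lists describe them and test nothing. Of 25 lists of membrane, secreted or lumenal proteins with 5 or more members, 24 had a median 1.5-fold or more higher, and in 24 no member was 1.5-fold lower. By total counts 13 had a median 1.5-fold or more higher. Of 24 soluble lists 22 had a median below 0. The sterol synthesis enzymes of the ER membrane, at 0.55, were the membrane list under the threshold. A transcript is called well counted below when it had 200 or more counts in each assay and its 2 poly(A) tallies do not disagree by more than 2-fold. Where the highest or lowest member of a list was not well counted, the nearest one that was is given beside it.

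Among transporters, solute carriers outside the mitochondrial SLC25 family had a median of 0.84, with 62 of 84 higher and 2 lower. Their highest member was Slc35a3, a Golgi nucleotide sugar transporter, at 2.07 (1.47 to 2.68) on 57 and 131 footprint counts. The highest of the well counted was the sodium/proton exchanger gene Slc9a8, at 1.61 (1.20 to 2.02), with 23 and 64.7 footprint CPM on 18.9 and 20.2 poly(A) CPM. Their lowest, Slc9a3r1 at −0.72 (−0.91 to −0.52), is a cytosolic scaffold protein that only shares the name stem; so is Slc9a3r2 at −0.69, the other lower member. P-type ATPases and ion channels stood at 0.69 (31 of 44 higher, 0 lower). They ranged from the calcium channel gene Cacna1a at −0.54 (−0.89 to −0.19) to Lrrc8d, a volume-regulated anion channel subunit, at 1.59 (1.27 to 1.91). Transcripts for ABC transporters of the cell and organelle membranes stood at 0.77 (11 of 14 higher), the highest being the lipid transporter gene Abca3 at 1.38.

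Receptors and adhesion proteins behaved alike in size. G protein-coupled receptors and Frizzleds had a median of 0.78 (21 of 24 higher), with Gpr126, an adhesion receptor, at 1.47 (1.15 to 1.79) and the Hedgehog signal transducer gene Smo lowest at 0.36 (−0.27 to 0.99). The lowest of the well counted was the latrophilin gene Lphn1 at 0.61. Receptor kinases and cytokine receptors stood at 0.81 (25 of 30 higher). In that list Igf2r, which carries IGF2 and lysosomal enzymes inward, was highest at 1.31 (1.21 to 1.42), with footprints at 873 and 1470 CPM against mRNA at 246 and 194. Receptor phosphatases, Notch and LDL receptors stood at 0.81 (26 of 36 higher), from Lrp4 at 0.19 to Ptprk at 1.31. Cadherins, integrins and other adhesion proteins stood at 0.81 (25 of 32 higher), from the integrin alpha chain gene Itgal at 0.08 (−0.76 to 0.92) on 37 and 25 footprint counts to the integrin beta chain gene Itgb1 at 1.26. Cdh2, at 0.44, was the lowest of the well counted. Tetraspanins and claudins, small multi-pass proteins of the cell surface and its junctions, were 1.5-fold or more higher in 12 of 12, with a median of 0.82 and a highest value of 1.26 in Tspan13.

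Lumenal proteins included a list whose members were all higher. All 30 lysosomal hydrolases, which digest macromolecules inside the lysosome, were 1.5-fold or more higher, with a median of 0.95. The highest was Ppt1, a palmitoyl-protein thioesterase, at 1.53 (1.12 to 1.95), whose poly(A) tallies disagree. The highest of the well counted was the acid ceramidase gene Asah1, at 1.49 (1.30 to 1.67), with footprints at 227 and 353 CPM and mRNA at 94.2 and 60.8. The membrane proteins of the same organelle had the highest median of any list, 1.15, with 12 of 13 higher. In that list the abundant glycoprotein gene Lamp2 was highest at 1.66 (1.39 to 1.93) and Cd68 lowest at 0.51. The poly(A) tallies of Lamp2 disagree, and the highest of the well counted was Ostm1, the partner of a lysosomal chloride transporter, at 1.42. Matrix proteins had a median of 0.82 (27 of 34 higher), from Lama3 at −0.08 (−0.48 to 0.32) to the fibrillar collagen gene Col11a1 at 1.72 (1.32 to 2.13). Secreted growth factors and their binding proteins stood at 0.69 (14 of 22 higher), where the Nodal antagonist gene Lefty1 was highest at 1.12.

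Enzymes anchored in internal membranes followed. Enzymes of fatty acid and phospholipid synthesis in membranes had a median of 0.79 (29 of 39 higher), with the acyltransferase gene Lpgat1 highest at 1.504 (1.06 to 1.95), on poly(A) tallies that disagree. Cds1, which makes CDP-diacylglycerol, was the highest of the well counted at 1.34. DHHC palmitoyltransferases, which attach lipids to other proteins, stood at 0.99 (7 of 10 higher), and membrane-bound ubiquitin ligases and ER-associated degradation proteins at 0.98 (19 of 23 higher). In the last list Erlin1, a membrane protein of the same pathway, was highest at 1.61 (1.18 to 2.03), on tallies that disagree, followed by the well counted Tmub2 at 1.59. Its lowest were Ube2j2, a tail-anchored ubiquitin-conjugating enzyme, at −0.33 (−0.92 to 0.25) and Rnf185 at −0.03, both below 0. Syvn1, the central ligase of that pathway, stood at 0.20 (−0.11 to 0.50), the lowest of the well counted. The TMEM proteins, grouped by name and mostly of undefined function, stood at 0.81 (51 of 67 higher, 0 lower), from Tmem214 at −0.35 to Tmem70 at 1.89 (1.43 to 2.35), whose tallies disagree. The highest of the well counted was Tmem87a at 1.66.

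**Figure D3:**
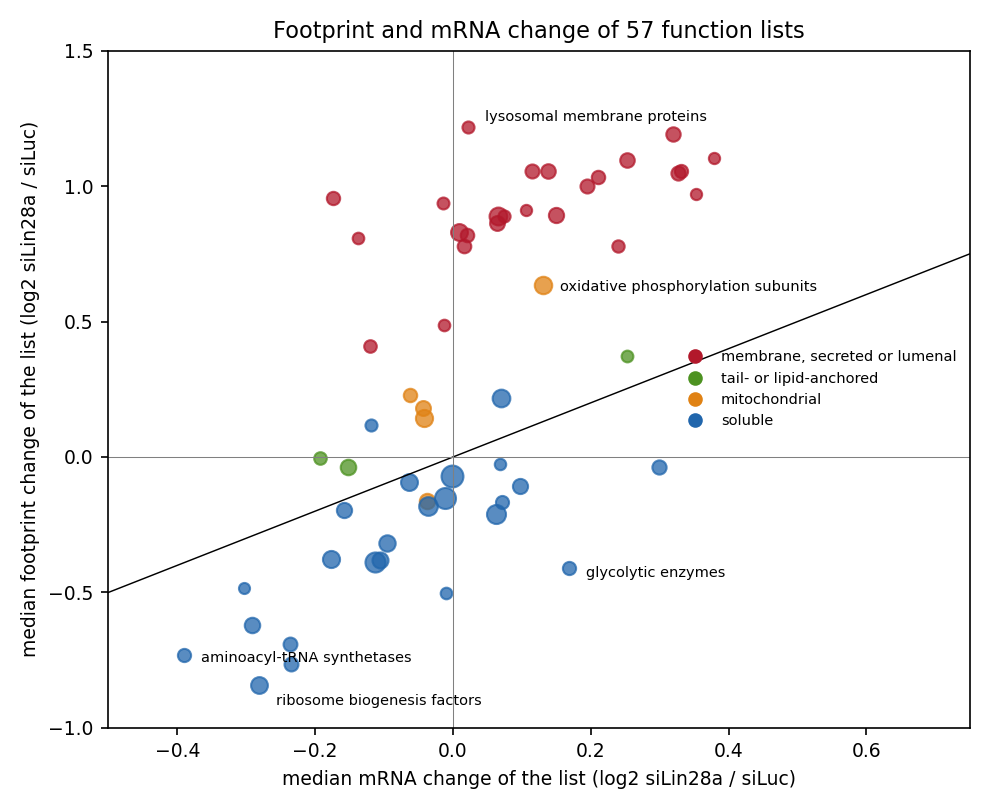
Each point is 1 of 57 function lists with 5 or more members, placed by its median mRNA change (x axis) and its median footprint change (y axis), both log2 siLin28a over siLuc relative to the median transcript; point size grows with the number of members and the line marks equal change. Membrane, secreted and lumenal lists lie above the line at mRNA medians on both sides of 0, and glycolytic enzymes lie below it with an mRNA median of 0.17.

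Among soluble lists of 5 or more members the lowest medians were those of glycolytic enzymes and ribosome biogenesis factors. Glycolytic enzymes had a median of −0.71, with 12 of 22 lower and 0 higher. That list also holds enzymes of the pentose phosphate pathway, namely G6pdx, Pgd, Pgls, Taldo1 and Tkt. Over the whole list footprints were lower (median −0.41) while mRNA was higher (0.17). Pgk1, phosphoglycerate kinase, had 876 and 556 footprint CPM against 1073 and 1292 poly(A) CPM, a density change of −0.71 (−0.78 to −0.64). The lowest of the list was Eno1, at −1.43 (−1.73 to −1.12), and the highest the transketolase gene Tkt, at 0.10. Gapdh stood at −1.11. Eno1, Gapdh and Pgk1 have processed copies elsewhere in the genome, and the 2 poly(A) tallies of Pgk1 disagree, so their counts are uncertain. Pgk1 and Gapdh were chosen after their values were seen.

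Ribosome biogenesis factors had a median of −0.60, with 34 of 66 lower and 0 higher. The lowest was Bms1, a GTPase of small subunit assembly, with footprints at 49.9 and 12.2 CPM, mRNA at 333 and 226 CPM and a density change of −1.25 (−1.62 to −0.88). MCM and other replication proteins stood at −0.45 (20 of 47 lower, 2 higher). Mcm5, a subunit of the replicative helicase, had footprints at 392 and 90.5 CPM, mRNA at 636 and 420 CPM and a density change of −1.30 (−1.45 to −1.16). In Bms1 and Mcm5 both terms were lower and footprints more so. Nucleotide synthesis enzymes stood at −0.42 (13 of 29 lower, 1 higher), where the folate enzyme gene Mthfd1 was lowest at −1.30. The highest of the well counted was the purine salvage gene Hprt at 0.49.

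The translation apparatus was not uniform. Aminoacyl-tRNA synthetases had a median of −0.36 (8 of 22 lower, 0 higher), from Farsa at −0.84 to Mars at 0.55. Initiation and elongation factors stood at −0.22 (11 of 60 lower, 6 higher), and their 18.3% lower was near the 17.0% of all transcripts. Against unlisted transcripts of the same quintile of coding length, the medians were −0.13 for these factors and −0.14 for the synthetases. The factors ranged from Eif4b at −1.18 (−1.32 to −1.04) to Eif1, a start codon selection factor whose poly(A) tallies disagree, at 1.19 (1.07 to 1.30). The highest of the well counted was Eif4ebp1, which holds back the cap-binding factor, at 0.74. Cytosolic ribosomal proteins stood at 0.07 (5 of 81 higher, 1 lower), which is −0.14 by total counts; they share reads with many pseudogenes and are uncertain. Cytosolic chaperones stood at −0.52 (11 of 28 lower, 2 higher). The myosin chaperone gene Unc45a was lowest there, at −1.68 (−2.15 to −1.21), with footprints at 31.2 and 8.19 CPM on an mRNA level of 78.9 and 77.5. Proteasome subunits stood near the median transcript at −0.05, with 3 of 44 lower and 0 higher.

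Nuclear regulators were mostly below the median transcript. Splicing factors had a median of −0.32 (41 of 127 lower, 2 higher), chromatin remodelers and modifiers −0.37 (31 of 106 lower, 5 higher), and nuclear transport receptors with soluble nucleoporins −0.23 (11 of 55 lower, 0 higher). Zinc finger proteins of the Zfp family stood at −0.14, with 34 of 170 lower and 17 higher. In the last 2 lists 20% were lower, near the 17.0% of all transcripts. Set against unlisted transcripts of the same quintile of coding length, the medians were −0.04 for zinc finger proteins and −0.07 for nuclear transport. They were −0.26 for splicing factors and −0.22 for chromatin remodelers and modifiers. Pluripotency genes, most of them for transcription factors, had a median of −0.44 (10 of 32 lower, 2 higher). Their median mRNA change was 0.30 and their median footprint change −0.04. Against unlisted transcripts of the same length their median was −0.32. The list includes the siRNA target Lin28a, whose own density change is uncertain. Myc was the lowest of the list, at −1.10 (−1.44 to −0.76), with footprints at 43.1 and 23.1 CPM and mRNA at 52.3 and 69.8. In this list the lower density came with a higher mRNA level and little change in footprints.

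Mitochondrial proteins differed between lists. Subunits of oxidative phosphorylation had a median of 0.42, with 18 of 77 higher and 0 lower, from Ndufs3 at −0.35, whose poly(A) tallies disagree, and Ndufv1 at −0.33 to Ndufc1 at 1.25 (0.96 to 1.54). SLC25 carriers, which are multi-pass proteins of the inner membrane, stood at 0.26 (4 of 24 higher), well under the 0.84 of the other solute carriers, and import proteins at 0.25 (6 of 40 higher). Mitochondrial ribosomal proteins stood at 0.13 (4 of 72 higher, 2 lower; −0.08 by total counts) and matrix enzymes at −0.08 (2 of 46 higher, 0 lower). Coding length differed too, with medians of 448.5 bases for oxidative phosphorylation subunits and 1365 bases for matrix enzymes. Set against unlisted transcripts of the same quintile of coding length, the medians were 0.20 for oxidative phosphorylation, 0.26 for SLC25 carriers, 0.14 for import proteins, −0.02 for ribosomal proteins and 0.04 for matrix enzymes.

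Several machineries are built from membrane and soluble parts, and in 6 of 7 the membrane part had a median of 0.55 or more and the soluble part one near or below 0. The vacuolar ATPase, the proton pump that acidifies lysosomes, is the clearest case by structure. Its membrane sector had a median of 0.68, with 6 of 8 members higher. Atp6ap2 stood at 1.29, Atp6v0e at 1.04, Atp6v0b at 1.01, Atp6ap1 at 0.74, Atp6v0c at 0.63, Atp6v0a2 at 0.59, Atp6v0a1 at 0.40 and Tcirg1 at 0.13. Footprints of Atp6v0b, a subunit of the rotating ring, were at 122 and 212 CPM while its mRNA was at 48.3 and 48.4.

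The cytosolic sector of the same pump, which hydrolyses ATP, had a median of 0.06 (−0.16 by total counts), with 0 of 9 members higher and 2 lower. Atp6v1d stood at 0.58, Atp6v1g1 at 0.42, Atp6v1e1 at 0.22, Atp6v1c1 at 0.13, Atp6v0d1 at 0.06, Atp6v1f at 0.05, Atp6v1h at −0.33, Atp6v1a at −0.85 and Atp6v1b2 at −0.90. The lowest 2 are the catalytic and nucleotide-binding subunits. Footprints of Atp6v1a were at 89.4 and 44.6 CPM with mRNA at 152 and 158, and those of Atp6v1b2 at 176 and 96.6 with mRNA at 218 and 259. The values of the 2 sectors overlap between 0.13 and 0.58.

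Soluble members of the ABC family, which act in translation and ribosome recycling, did not overlap with its membrane transporters. Abcf3 stood at −1.25, Abcf1 at −1.04, Abcf2 at −0.90 and Abce1 at −0.12, with a median of −0.97 against 0.77 for the 14 transporters. Abcf1 had 67.1 and 26.1 footprint CPM on 406 and 377 poly(A) CPM. Both groups carry the ATP-binding domain that gives the family its name.

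The translocation machinery of the ER divided in the same way. Membrane subunits of the translocon and the oligosaccharyltransferase had a median of 0.84, with 20 of 25 higher, among them Sec63 at 1.35 (1.03 to 1.66). The signal recognition particle and other soluble targeting factors had a median of −0.02, with 1 of 13 higher and 1 lower, from Srp68 at −1.09 (−1.27 to −0.90) to Srp9 at 0.78. Nuclear envelope membrane proteins stood at 0.64 (8 of 15 higher), from Tmpo at −0.57 to Tor1aip1 at 0.95. Of the lamina proteins beneath them, Lmnb1 stood at −0.60, Lmnb2 at −0.47, Lmna at −0.44 and the short chromatin-bridging protein gene Banf1 at 0.93.

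Peroxisomal membrane proteins had a median of 0.59 (5 of 10 higher), with Pex3, the docking site for the import factor of other peroxisomal membrane proteins, at 1.36 and the tail-anchored Fis1 at 0.06. Soluble peroxisomal proteins, which are imported from the cytosol, stood at −0.37 (7 of 21 lower, 1 higher), from Hsd17b4 at −1.05 to Gnpat at 0.69. In sterol synthesis the membrane enzymes had 6 of 17 higher, from Lss at −0.24 to the sterol sensor partner gene Insig2 at 1.56 (1.01 to 2.11), on tallies that disagree, with Sc4mol next at 1.47. Among the soluble enzymes of that pathway Pmvk stood at 0.39, Mvk at 0.31, Acat2 at −0.18, Fdps at −0.30, Ggps1 at −0.38, Idi1 at −0.42 and Mvd at −0.53, and none was past 1.5-fold.

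In vesicle fusion the membrane part is tail-anchored, and its median of 0.19 was lower than that of any membrane list above. Sec22a was highest at 1.24. Vti1b, at 1.07 (0.61 to 1.54), was the highest of the well counted and Stx5a, at −0.50 (−0.89 to −0.11), the lowest. The soluble factors that act on SNAREs had a median of −0.35, with 4 of 10 lower. In that list Stxbp3a was lowest at −1.48 on 86 and 19 footprint counts. Nsf, the ATPase that takes spent SNARE complexes apart, was the lowest of the well counted at −0.80 (−1.01 to −0.60), with footprints at 124 and 64.7 CPM and mRNA at 138 and 146.

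**Figure D4:**
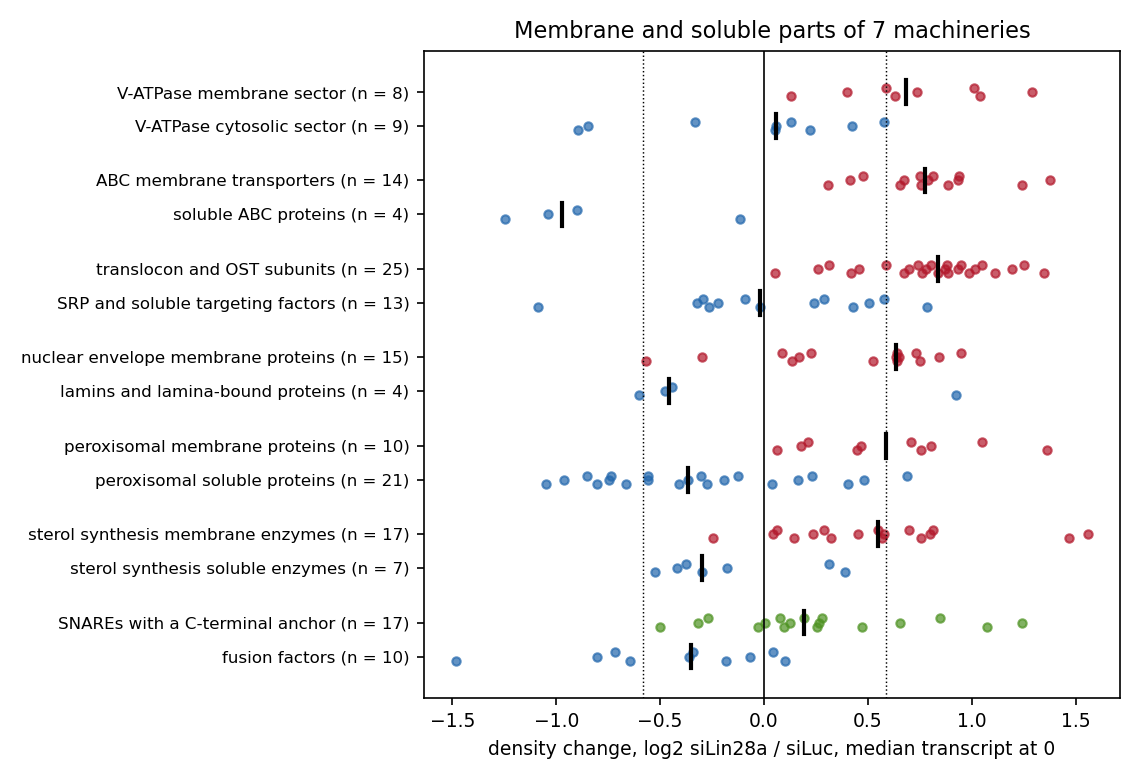
Density change (x axis, log2 siLin28a over siLuc, median transcript at 0) of every member of the membrane part (red, or green for tail-anchored SNAREs) and the soluble part (blue) of 7 machineries; each point is 1 transcript, black bars are medians and dotted lines mark 1.5-fold. Membrane parts lie to the right of their soluble partners, with overlap in every pair but the ABC proteins.

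Members that went against their class were few, and those named here were chosen after their values were seen. Of the 661 membrane and lumenal transcripts, 19 were at or below 0, and 5 of them had an interval wholly below 0, namely Slc9a3r1, Slc9a3r2, Tmpo, Cacna1a and Tmem214. Of the 19, 4 were cytosolic or nuclear proteins taken up by a name pattern (Slc9a3r1, Slc9a3r2, Fgfr1op and Slc4a1ap). Emd, the nuclear envelope protein emerin, stood at −0.30 (−0.64 to 0.04) and is tail-anchored. Tmpo has forms with and without a membrane segment. The tail-anchored Ube2j2, at −0.33, is not among the 19. It is also in the list of ubiquitin-conjugating enzymes and was counted there, as soluble.

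Of the 1381 soluble transcripts, 16 were 2-fold or more higher. Zbtb39, a zinc finger protein, was the highest of all 7799 transcripts at 2.13 (1.20 to 3.06), but on 15 and 35 footprint counts. Vps54, a tethering subunit at the Golgi, stood at 1.32 (0.88 to 1.75) with footprints at 9.51 and 22.2 CPM. Arf4, a GTPase of Golgi transport, stood at 1.02 and Eif1 at 1.19. Both PP1 subunits that reverse eIF2 phosphorylation were among them, Ppp1r15a at 1.11 (0.45 to 1.77) and Ppp1r15b at 1.07 (0.90 to 1.24). For Ppp1r15b footprints were at 108 and 183 CPM and mRNA at 167 and 157.

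Across all well counted transcripts outside histones and cytosolic ribosomal proteins, most of the 8 highest encode membrane or lumenal proteins, and Col11a1 is the only one of them in a list. Tmtc4, an ER membrane protein, was highest at 1.78 (1.26 to 2.31), with footprints at 11.2 and 25.3 CPM and mRNA at 17.0 and 12.8. It was followed by 3632451O06Rik at 1.75, the membrane ubiquitin ligase gene Rnf121 at 1.73, the lysosomal thiol reductase gene Ifi30 at 1.73 and Col11a1 at 1.72. Alg5, a glucosyltransferase of the ER membrane, stood at 1.72, Eea1, a soluble tether of early endosomes, at 1.69, and the single-pass receptor gene Tlr2 at 1.67. For Tlr2 footprints were at 11.6 and 44.8 CPM.

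The 8 lowest had no secretory pathway protein among those of known location. Rhpn2 was lowest at −1.83 (−2.40 to −1.25). Anxa6, a calcium-dependent protein that binds membranes from the cytosol, stood at −1.80 (−2.03 to −1.58), with footprints at 121 and 42.3 CPM and mRNA at 171 and 243. Mpp1, a palmitoylated scaffold under the plasma membrane, also stood at −1.80, where the mRNA was higher (19.2 and 49.0 CPM) and footprints were at 32.1 and 20.2. The chaperone gene Unc45a at −1.68 and the cytosolic Dpysl3 at −1.63 came next, then Upf1, the helicase of nonsense-mediated decay, at −1.60 (−1.80 to −1.39). Ankmy2 stood at −1.54 and Cand2, which binds cullins, at −1.52. Anxa6 and Mpp1 touch the membrane, and where their mRNAs were translated was not measured here.

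At the count minimum itself values are imprecise. Of transcripts with 50 footprint counts in all, Zbtb39 stood at 2.13, Zbtb6 at 1.09 and Spnb1 at 0.17, and of those with 49, Dyrk2 stood at 0.40, Mkks at 0.25 and Ppp2r5b at 0.13, each with an interval about 0.9 wide on either side.

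Coding length moved with density change outside the membrane and lumenal classes. In the shortest quintile of coding lengths, 78 to 843 bases, unlisted transcripts had a median of 0.25, and in the next 4 quintiles −0.03, −0.21, −0.21 and −0.16. Soluble classes went from 0.15 in the shortest quintile to −0.47 in the fourth, and mitochondrial transcripts from 0.34 to −0.02 in the second. Membrane and lumenal transcripts had medians of 0.72, 0.91, 0.88, 0.74 and 0.78 from shortest to longest. These medians thus lay above those of the unlisted and the soluble transcripts of the same length in each quintile.

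Density change also moved with LIN28A binding measured in other libraries. CLIP-seq uses UV light to fix RNA to the protein that holds it and sequences what an antibody pulls down, here with 3 antibodies to LIN28A in cells without siRNA. Enrichment was taken as the mean log2 ratio of CLIP over untreated poly(A) CPM for the 7111 transcripts with a value. From the lowest to the highest quintile of enrichment the median density change over all transcripts was −0.35, −0.22, −0.05, 0.12 and 0.58. The rank correlation across transcripts was 0.48 (n = 7111), a description over transcripts that share cell line and abundance and are not independent replicates.

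Topology and CLIP enrichment overlapped but did not replace each other. The median enrichment was 0.69 in membrane and lumenal classes and −0.51 in soluble classes. Among membrane and lumenal transcripts density change went from 0.42 in the lowest quintile of enrichment (27 transcripts) to 0.90 in the highest (326), with a rank correlation of 0.37 (n = 618). Among soluble transcripts it went from −0.43 to 0.08, with a rank correlation of 0.35 (n = 1286), and among unlisted ones from −0.36 to 0.47. In every quintile the membrane and lumenal median lay above the soluble one. The median of membrane transcripts in the lowest quintile lay above that of soluble transcripts in the highest, but the transcripts themselves overlapped. Of these 27 membrane transcripts 9 were 1.5-fold or more higher and 2 lower, and of the 181 soluble ones 30 were higher and 9 lower. No CLIP library with a control antibody entered, so binding and other sources of CLIP signal cannot be told apart.

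**Figure D5:**
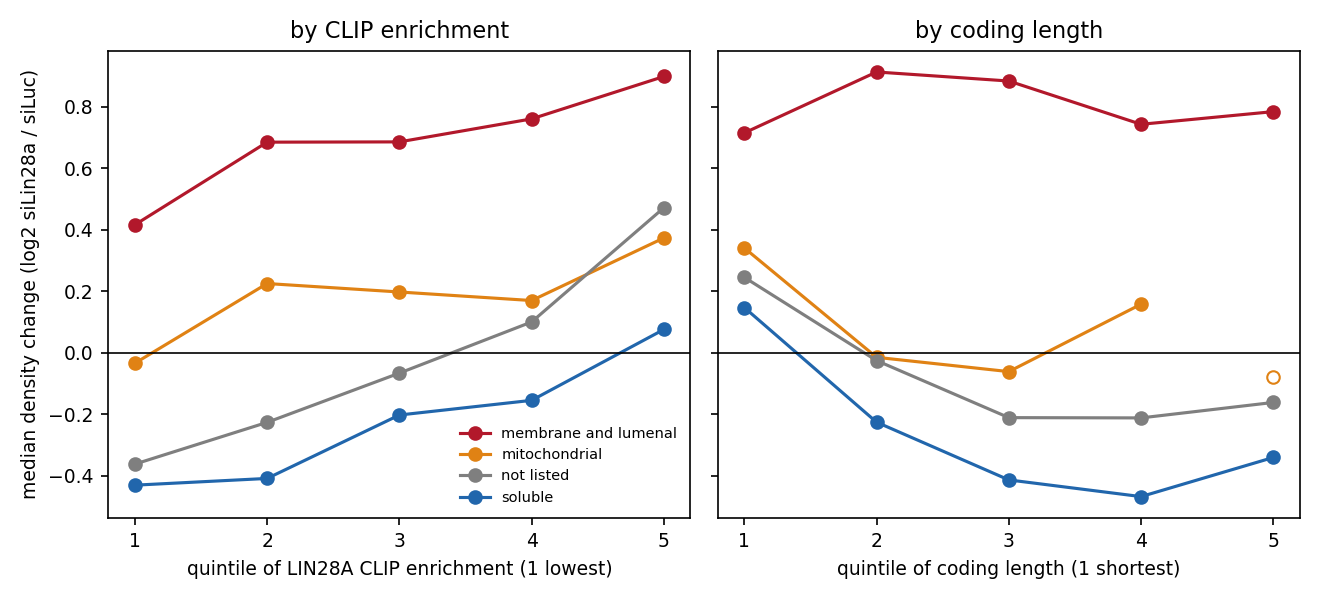
Median density change (y axis, log2 siLin28a over siLuc) in quintiles of LIN28A CLIP enrichment (left, 1 lowest) and of coding length (right, 1 shortest) for membrane and lumenal, mitochondrial, unlisted and soluble transcripts; the open circle rests on 4 transcripts. Each set is higher in the highest than in the lowest quintile of CLIP enrichment, and the membrane and lumenal set stays at 0.72 or more at every coding length.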

How the data were processed

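Ribosome footprints and poly(A) RNA of A3-1 cells after siLuc or siLin28a were analysed, 1 library each. The deposited values are whole-read counts per RefSeq transcript; mm9, GSNAP and bedtools are named per the submitters' processing notes, while what each did, its version and how reads were assigned is not given in the sources used here. Of 7936 transcript identifiers 7863 matched the supplied RefSeq table. The deposited density ratios and p-values were left aside, as were 30 other columns with values per sample. Transcript loci are those of the authors' poly(A) table.

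Density change was log2 (siLin28a/siLuc) of footprint counts minus that of the poly(A) counts in the same table, with 0.5 counts added, centred on the median of transcripts with 50 or more counts per assay. Intervals (95%) are a normal approximation on the log scale, and shares have exact binomial intervals; PCR reads without molecular identifiers make both cover counting error only. With 1 library per condition there is no test. No protein sequences were used, so topology is that of the gene lists, and a gene in 2 lists (11 genes) counts once by class. Members and lists were chosen with earlier results of these data known. Named genes are the 8 highest and 8 lowest changes, the highest and lowest of each list of 5 or more, the member of each class with most footprints (all of these among transcripts with 200 or more counts per assay, without histones, cytosolic ribosomal proteins and transcripts whose 2 poly(A) tallies differ over 2-fold from the median ratio), all members of machinery lists under 10, Lin28a and Lin28b; Sec61b, Sec61g, Emd, Pgk1, Gapdh, the extremes of lists outside that filter, the members that went against their class and the closing observations were chosen after their values were seen. Alternatives changed the count minimum, pseudocount, scaling (total counts, edgeR 4.0.16 TMM factors), poly(A) tally and list membership. The highest member of the nucleotide synthesis list is not reported here. The calculation, in Python 3.11.15, was tested on simulated data. CLIP enrichment used the deposited exon counts of 3 antibodies.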

Additional observations from a re-analysis of the deposited data

How the results depend on the processing

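No paired analysis was possible because each condition has 1 library, and for the same reason no library could be left out. Scaling by total counts lowered every value by the same 0.22. The medians of 2 of 13 classes (tail-anchored and lipid-anchored), 6 of 57 lists and 14 of 166 named genes changed sign under it, all within that distance of 0. Class medians were then 0.58 for multi-pass, 0.63 for single-pass, 0.75 for type II, 0.54 for secreted and 0.66 for lumenal proteins. They were −0.022 for tail-anchored, −0.029 for lipid-anchored and 0.015 for mitochondrial proteins. Soluble proteins of the periphery, cytosol and nucleus stood at −0.32, −0.35 and −0.52 and unlisted transcripts at −0.26. On that scale 867 transcripts were 1.5-fold or more higher and 2132 lower, and 13 lists had a median 1.5-fold higher. The order of the classes cannot change under this scaling, which shifts all transcripts alike. With the poly(A) table's own tally the medians of multi-pass and single-pass proteins were 0.83 and 0.88. Without the 1040 transcripts (13.3%) whose poly(A) tallies disagree that of single-pass proteins was 0.88, and in that setting 1 list median, that of cytosolic ribosomal proteins, moved to −0.02 on 7 members. At a count minimum of 200 the median of heterotrimeric G protein subunits went from 0.02 to −0.03, and with the poly(A) table's own tally 2 named genes changed sign. Other alternatives were count minimums of 20, 200 or none, a pseudocount of 5 and TMM factors. Lists without members that a name pattern took wrongly, or without those that sit elsewhere than their list, were 2 alternatives added after seeing the data. Under each of these, 0 of 13 class medians changed sign and the counts stayed within 1.5 times. The table has 1 transcript per gene, so choosing 1 per gene changed nothing. Not run were the hydropathy cutoffs and the placing of mitochondrial proteins by sequence, since no protein sequences were used here, and the CLIP table's poly(A) column as input, since it names no condition. Depth limits single transcripts more than classes.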

Other observations

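Tail-anchored proteins other than SNAREs were looked at after the SNARE values were seen, in 2 lists made then. The 12 measured tail-anchored proteins of the ER and nuclear envelope had a median of 0.06, with 1 higher and 1 lower by 1.5-fold. They ranged from Ptpn1, a phosphatase on the ER surface, at −0.69 (−1.12 to −0.26) to the translocon subunit gene Sec61g at 0.93 (0.79 to 1.08). Its partner subunit gene Sec61b stood at 0.05 (−0.11 to 0.22), with footprints at 201 and 232 CPM and mRNA at 102 and 132, and Vapa, an ER contact site protein, at 0.07. Sec61b and Sec61g were also counted in the translocon list, and Emd in the nuclear envelope list. The 19 tail-anchored proteins of mitochondria and peroxisomes had a median of 0.13, also with 1 higher and 1 lower, from the antiviral adaptor gene Mavs at −0.82 (−1.19 to −0.45) to Bcl2l13 at 0.91 (0.57 to 1.24).

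Some list members sit in another place than their list. Mitochondrial membrane proteins counted in the multi-pass class, chosen after their values were seen, are Tmem11 at −0.06, Tmem143 at 0.33, Tmem223 at 0.50, Tmem160 at 0.68, Tmem14c at 0.71, Abcb10 at 0.75, Tmem126a at 0.98, Tmem126b at 1.02, Slc24a6 at 1.07 and Tmem70 at 1.89. Of these 10, 7 were 1.5-fold or more higher and 0 lower, with a median of 0.73, which is near that of the multi-pass class and above the 0.23 of the mitochondrial lists. Prkcsh, taken by a kinase name pattern, encodes a subunit of the ER lumenal glucosidase and stood at 0.67 (0.56 to 0.77), with footprints at 1007 and 1629 CPM. Eif2ak3, counted among translation factors, encodes a single-pass kinase of the ER membrane and stood at 0.61 (0.20 to 1.02). Snx14, counted among coats and adaptors, encodes a membrane protein and stood at 1.10 (0.78 to 1.42). Without these 13 transcripts the multi-pass median was 0.79, with 284 of 385 higher, and those of the cytosolic and peripheral soluble classes were −0.13 and −0.12.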
